A study of Homo sapiens with 9 samples.

Results

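The nuclear subunits of respiratory complex I were taken as every feature named NDUFA, NDUFB, NDUFC, NDUFS or NDUFV followed only by a number, together with NDUFAB1; the NDUFAF assembly factors were kept apart. The rule found 36 of 57773 annotated features, and all 36 had enough reads to be tested. RNA was sequenced from HepG2, an established human hepatocellular carcinoma line that keeps many hepatocyte functions, after 72 h with TBOEP, tris(2-butoxyethyl) phosphate, a phosphate ester that is added to plastics, floor finishes and flame-retardant products. The 9 libraries fall into 3 groups of 3: 0.1% DMSO alone (control), 2.5 µM TBOEP in DMSO and 125 µM TBOEP in DMSO, so all groups carried the solvent. Each library came from its own seeding, treatment and RNA isolation, and both concentrations were described as not cytotoxic in the labels. All the cultures were of 1 cell line.

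Complex I is the largest enzyme of the mitochondrial respiratory chain: it takes electrons from NADH, passes them along a row of iron-sulphur clusters to ubiquinone, and pumps protons across the inner membrane. It is built from subunits encoded in the nucleus, which are made in the cytosol and imported, and from the ND subunits encoded in mitochondrial DNA, which form the core of the membrane arm. A hydrophilic arm holds the NADH-oxidising end (here the NADH arm) and the quinone-reducing part (the quinone arm), and the membrane arm has a part next to the quinone site (proximal) and a far part (distal). Several nuclear respiratory chain genes are textbook targets of nuclear respiratory factor 1 (NRF1), ETS factors such as GABPA, and YY1.

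Promoter windows show the region these factors are known to use. The RefSeq promoter table on GRCh38.p14 held a window of 250 bases before to 50 after the start for 30 of the 36 members, and those without one include NDUFA4, NDUFB5 and NDUFS5. The letters GCGCANGCG (NRF1), CCGGAAG (ETS) and AANATGGC (YY1) were searched on both strands, and matches of different motifs did not overlap in any member. The NDUFA11 window below (chr19:5903761-5904040, minus strand) and the NDUFAB1 window (chr16:23596287-23596566, minus strand) hold an NRF1 match in capitals. The NDUFA1 window (chrX:119871582-119871861, plus strand) holds a YY1 match and then an ETS match, and the NDUFS7 window (chr19:1383657-1383936, plus strand) an NRF1 match and then a YY1 match. These 4 were chosen after the search, among members described below that hold a match. The window of NDUFB6 (chr9:32573130-32573409, minus strand), which had the second largest change at 125 µM, holds none of the 3, as does that of NDUFB3, and the former is printed beside them. Each is printed 5′ to 3′ on the gene's strand, 250 bases before to 30 after the RefSeq start.
NDUFA11: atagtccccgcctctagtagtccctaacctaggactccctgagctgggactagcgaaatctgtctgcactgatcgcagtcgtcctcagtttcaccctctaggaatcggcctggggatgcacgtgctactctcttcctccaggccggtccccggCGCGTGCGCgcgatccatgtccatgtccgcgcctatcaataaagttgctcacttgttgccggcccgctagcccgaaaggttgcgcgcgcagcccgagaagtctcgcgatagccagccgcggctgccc
NDUFA1: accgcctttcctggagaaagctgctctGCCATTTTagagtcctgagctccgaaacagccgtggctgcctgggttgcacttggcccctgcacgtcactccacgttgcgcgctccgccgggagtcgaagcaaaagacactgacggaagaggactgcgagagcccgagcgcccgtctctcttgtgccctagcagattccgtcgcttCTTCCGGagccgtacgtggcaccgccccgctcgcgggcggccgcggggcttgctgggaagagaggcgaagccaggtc
NDUFB6: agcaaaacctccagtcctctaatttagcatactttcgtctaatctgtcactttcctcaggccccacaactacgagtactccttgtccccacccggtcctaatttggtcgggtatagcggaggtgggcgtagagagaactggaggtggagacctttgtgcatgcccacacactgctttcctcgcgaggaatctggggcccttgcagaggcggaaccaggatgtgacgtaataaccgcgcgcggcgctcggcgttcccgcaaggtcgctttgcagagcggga
NDUFAB1: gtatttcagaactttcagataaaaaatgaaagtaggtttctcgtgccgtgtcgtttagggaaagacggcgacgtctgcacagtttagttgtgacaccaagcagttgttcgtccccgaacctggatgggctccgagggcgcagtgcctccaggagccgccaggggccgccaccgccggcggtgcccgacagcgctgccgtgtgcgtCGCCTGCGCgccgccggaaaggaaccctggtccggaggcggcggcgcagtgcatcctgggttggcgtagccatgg
NDUFS7: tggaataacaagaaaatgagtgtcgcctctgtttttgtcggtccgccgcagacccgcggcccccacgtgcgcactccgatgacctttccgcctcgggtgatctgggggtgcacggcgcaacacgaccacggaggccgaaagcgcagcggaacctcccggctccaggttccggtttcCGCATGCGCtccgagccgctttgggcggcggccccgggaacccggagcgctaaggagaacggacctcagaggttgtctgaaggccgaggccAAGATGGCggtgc

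The YY1 letters stood in 11 of 30 member windows (36.7%) and in 6.58% of all 35116 windows, and 9 of the 11 matches lay after the start, as in NDUFS7. These letters contain ATG, so a match after the start can be the start codon of the protein. How far that makes up the difference between the shares was not tested. The NRF1 letters stood in 9 of 30 (30%) against 7.52% of all windows, with 11 of their 15 matches in the 150 bases before the start. The ETS letters stood in 5 of 30 (16.7%) against 10.3%. At least 1 of the 3 motifs was in 18 members. The TATA box, TATAAA, stood in 2 of 30 (6.67%) against 11.5%, the CREB site TGACGTCA in 2 (6.67%) against 1.85%, and the oestrogen-related receptor site CAAGGTCA in 1 (3.33%) against 1.28%. A match describes letters in a window and not a bound site. Of the 9 members with an NRF1 match, 7 passed the test as higher at 125 µM against control, as did 13 of the 21 without one. For YY1 the counts were 9 of 11 and 11 of 19, and for ETS 3 of 5 and 17 of 25. Among all 36 members 25 passed as higher in this comparison, as did 20.3% of all genes tested. The differences in count between members with and without a match were not tested.

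Gene reads per library ranged from 2480964 to 11885877, and 3 reads corresponded to 0.252 CPM (reads of a gene scaled to library size) in the deepest library and 1.21 CPM in the shallowest. All 12 hepatocyte markers were above 1 CPM. The summed level of the 12 hepatocyte markers ranged from 68576 to 84850 CPM in controls, from 55060 to 69546 CPM at 2.5 µM and from 39983 to 47193 CPM at 125 µM. At 125 µM 7 of the 12 passed the test as lower and 0 as higher, beside 19.9% and 20.3% of all genes tested. At 2.5 µM 2 passed as lower and 1 (TTR) as higher, beside 5.03% and 6.02% of all genes tested. The 7 endothelial and blood markers summed to 2492 to 2981 CPM in controls, 2522 to 2782 CPM at 2.5 µM and 1887 to 2096 CPM at 125 µM, nearly all of it LYZ (group means 2816, 2648 and 1973 CPM). PTPRC and HBB were at 0 in all 9 libraries. At 125 µM CD68 rose by 1.77 ± 0.37 on the log2 scale, from a mean of 1.70 to 5.78 CPM (edgeR adjusted p = 0.0017), LYZ fell by 0.51 ± 0.10 (adjusted p = 0.00128), and VWF, with 77 reads in all, fell by 2.04 ± 0.67 (adjusted p = 0.0243, and 0.316 without control library 1, 0.0637 without the first and 0.191 without the second 125 µM library). Of the 6 fibroblast markers COL1A2, DCN, LUM and THY1 were at 0 in all libraries. PDGFRB, at a mean of 22.3 CPM in controls, 20.8 at 2.5 µM and 12.2 at 125 µM, fell by 0.92 ± 0.18 at 125 µM (edgeR adjusted p = 0.00118). The 4 bile duct markers summed to 264 to 296 CPM in controls, 308 to 343 CPM at 2.5 µM and 378 to 423 CPM at 125 µM. Among them KRT19 rose by 1.56 ± 0.17 at 125 µM (edgeR adjusted p = 1.77e-05) and by 0.81 ± 0.18 at 2.5 µM (adjusted p = 0.0125, and 0.0689 without control library 1), while SOX9 fell by 0.84 ± 0.14 (adjusted p = 0.000362) and 0.55 ± 0.14 (adjusted p = 0.0226, and 0.0592 to 0.164 without control library 1, control library 3 or the third 2.5 µM library). The part of these shifts in the results below was not tested. In bulk RNA, fewer cells of a kind and less RNA per cell cannot be told apart.

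The nuclear complex I genes took a larger share of the reads in both exposed groups than in controls. The 36 members together held 0.136, 0.154 and 0.141% of gene reads in control libraries 1 to 3, then 0.169, 0.185 and 0.190% at 2.5 µM, and 0.200, 0.198 and 0.197% at 125 µM. The 3 groups did not overlap, and the 125 µM libraries lay closest to each other. The difference was in exon reads: members had 1272 to 1439 CPM of exon reads in controls, 1597 to 1837 at 2.5 µM and 1904 to 1919 at 125 µM. Their intron reads were 79.8 to 100.3 CPM in controls, 64.5 to 96.6 at 2.5 µM and 67.8 to 76.1 at 125 µM. Over all nuclear genes, introns held 7.24, 7.22 and 6.14% of reads in controls, 7.74, 5.33 and 4.93% at 2.5 µM, and 5.504, 5.28 and 4.91% at 125 µM. The first 2.5 µM library thus had the highest intron share of the 9, and the part of intron share in the members' change was not tested.

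**Figure D1:**
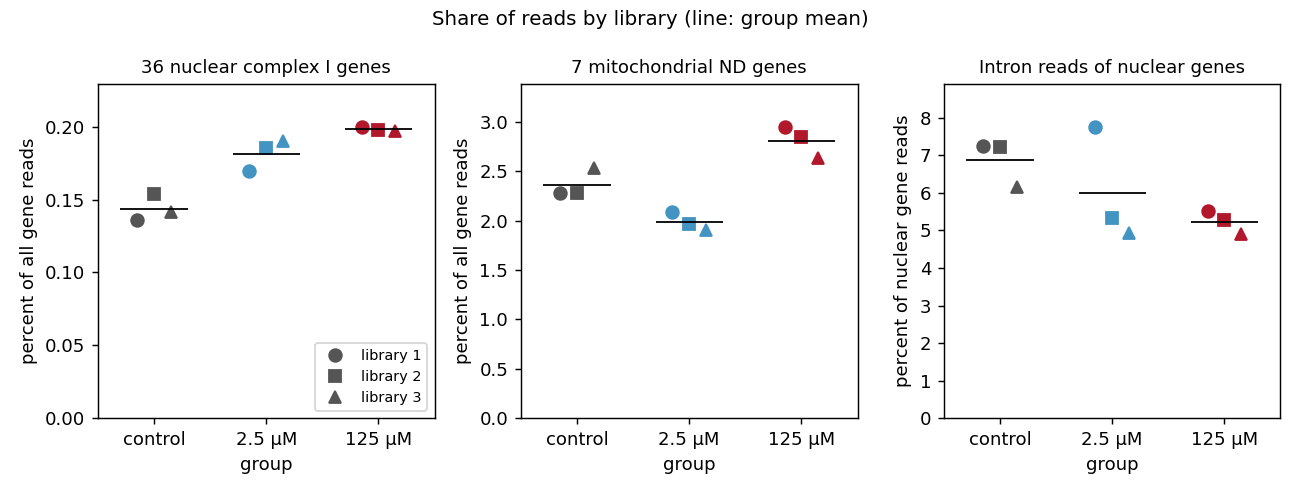
Share of reads in each of the 9 libraries, by group: reads of the 36 nuclear complex I genes and of the 7 mitochondrial ND genes as a percent of all gene reads, and intron reads as a percent of nuclear gene reads. Points are libraries 1 to 3 and lines are group means. The nuclear share is lowest in controls and highest at 125 µM, the ND share is lowest at 2.5 µM, and the first 2.5 µM library stands above the other two in intron share.

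At 125 µM against control, 25 of the 36 members rose, none fell, and 11 did not pass the test (edgeR quasi-likelihood test, Benjamini-Hochberg adjusted p under 0.05 over 12901 genes). Of all genes tested, 40.2% passed in this comparison, 20.3% as higher and 19.9% as lower. The members' median log2 fold change was 0.53 (range -0.14 to 1.35), beside 0.00 over all genes tested. No member was lower at an unadjusted p under 0.05, or in DESeq2. In 26 members the exposed libraries all lay above the controls, as they did in 25.6% of all genes tested, and in 1 member, NDUFA2, they all lay below, as in 25.2% of genes tested. The members that did not pass were NDUFA2, NDUFA5, NDUFA10, NDUFA13, NDUFB4, NDUFB10, NDUFC1, NDUFC2, NDUFS1, NDUFS6 and NDUFV3.

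At 2.5 µM against control, 15 members rose, none fell and 21 did not pass the same test, where 11% of all genes tested passed, 6.02% as higher and 5.03% as lower. The median log2 fold change was 0.38 (range 0.00 to 0.81) beside -0.01 over all genes tested, and all 36 estimates were above 0. Again no member was lower at an unadjusted p under 0.05, or in DESeq2. The 2.5 µM libraries lay wholly above the controls in 24 members and in 14.4% of all genes tested. The count of 15 that passed the test rested on single libraries: it was 6 without control library 1, 9 without control library 3, 7 without the second 2.5 µM library, 9 without the third and 16 without the first. It was also 3 in limma on log2(RPKM + 0.5), 0 on log2(RPKM + 0.1) and 2 on the authors' quantile-normalised values, while at 125 µM these counted 27, 27 and 22 members. Both comparisons use the same 3 control libraries.

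Against the mean of the controls, the members' median difference in log2 CPM was 0.18, 0.51 and 0.41 in 2.5 µM libraries 1 to 3 and 0.54, 0.51 and 0.43 in 125 µM libraries 1 to 3. The first 2.5 µM library was the lowest of its group in 26 of 36 members and in 33.6% of all genes tested. Even so, 26 members in it lay above the highest control, as did 30.01% of all genes tested.

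**Figure D2:**
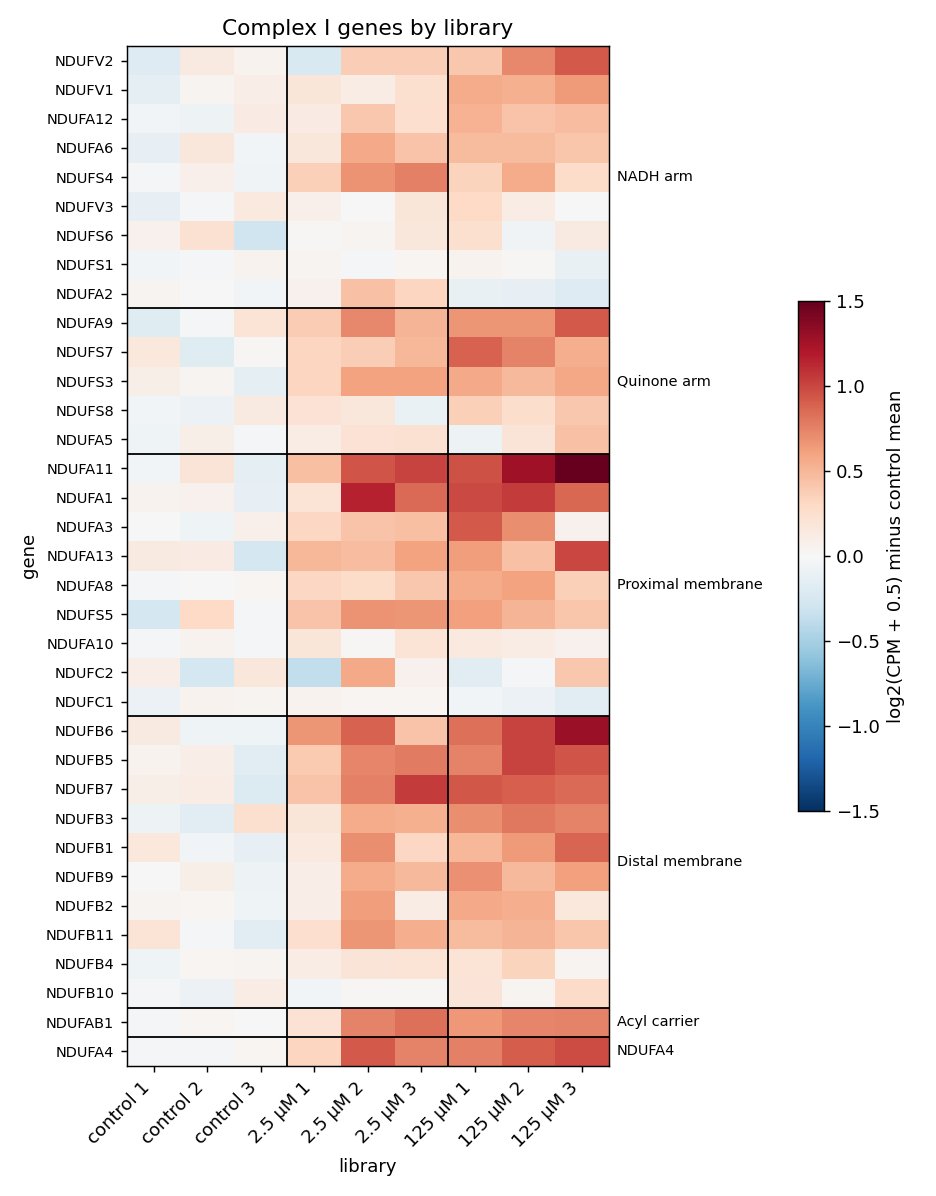
Heat map of 35 of the 36 genes (rows, grouped by their place in the complex) in the 9 libraries (columns). Colour is log2(CPM + 0.5) minus the mean of the 3 controls, red for higher and blue for lower. Most rows are red in both exposed groups, paler in the first 2.5 µM library, and rows such as NDUFS1, NDUFC1 and NDUFS6 stay pale throughout.

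In the NADH arm, 5 of 9 members rose at 125 µM (median log2 fold change 0.41) and 2 of 9 at 2.5 µM (median 0.18). NDUFV1 (hg19 chr11:67374323-67380006), the subunit that binds NADH and the flavin, had 54.1, 61.3 and 64.1 CPM in controls, 67.6, 64.3 and 70.7 CPM at 2.5 µM, and 87.7, 86.9 and 93.6 CPM at 125 µM. The 3 groups did not overlap, and the step lay mainly between the exposed groups. Its log2 fold change was 0.58 ± 0.09 (SE) at 125 µM against control (edgeR quasi-likelihood adjusted p = 0.000179), 0.18 ± 0.09 at 2.5 µM against control (adjusted p = 0.225) and 0.41 ± 0.09 at 125 µM against 2.5 µM (adjusted p = 0.00713).

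NDUFS4 (chr5:52856463-52979168), an accessory subunit mutated in some cases of Leigh syndrome, had the highest mean RPKM of the NADH arm. Its levels were 38.1, 40.8 and 37.2 CPM in controls, 49.7, 61.8 and 65.4 CPM at 2.5 µM and 48.7, 56.9 and 47.0 CPM at 125 µM. Both exposed groups lay above the controls and overlapped each other. The rise was 0.59 ± 0.12 on the log2 scale at 2.5 µM (edgeR adjusted p = 0.00948) and 0.41 ± 0.12 at 125 µM (adjusted p = 0.0115, and 0.0849 without the second 125 µM library). NDUFS1 (chr2:206979541-207024327), which carries several of the iron-sulphur clusters and had the most reads of any member, showed another picture. It had 191, 194 and 204 CPM in controls, 202, 193 and 201 CPM at 2.5 µM, and 204, 198 and 182 CPM at 125 µM. The groups overlapped, and its log2 fold change at 125 µM was -0.01 ± 0.08 (edgeR adjusted p = 0.96).

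NDUFA2 (chr5:140018325-140027370), an accessory subunit of the same arm, was the only member lower at 125 µM than at 2.5 µM by the test. It had 19.5, 19.0 and 18.5 CPM in controls, 19.8, 25.9 and 23.8 CPM at 2.5 µM and 17.5, 17.4 and 16.5 CPM at 125 µM. The 125 µM libraries were the lowest 3 of the 9. The log2 fold change was -0.42 ± 0.13 at 125 µM against 2.5 µM (edgeR adjusted p = 0.0407), and -0.14 ± 0.13 against control (adjusted p = 0.416). The first of these calls was lost under 13 of 21 alternatives, among them DESeq2, exon reads alone, and leaving out control library 3, 2.5 µM libraries 2 or 3, or any 125 µM library. Introns held 17.03% of its reads, and it overlaps IK on the other strand. On exon reads alone its estimate at 125 µM against control was 0.10 instead.

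In the quinone arm, 5 of 6 members rose at 125 µM (median 0.46) and 2 of 6 at 2.5 µM (median 0.27). NDUFS7 (chr19:1383526-1395583), which carries the last iron-sulphur cluster before ubiquinone and whose promoter is printed above, had 13.9, 10.9 and 12.6 CPM in controls, 15.6, 16.2 and 17.8 CPM at 2.5 µM and 23.3, 21.1 and 18.4 CPM at 125 µM. No 2 groups overlapped. Its log2 fold change was 0.75 ± 0.14 at 125 µM (edgeR adjusted p = 0.000781) and 0.36 ± 0.14 at 2.5 µM (adjusted p = 0.116).

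In the proximal membrane arm, 5 of 9 members rose at 125 µM (median 0.54) and 4 of 9 at 2.5 µM (median 0.41), and these 9 differed most among themselves, from -0.08 for NDUFC1 to 1.35 for NDUFA11 at 125 µM. NDUFA11 (chr19:5891287-5904017), a membrane-spanning subunit that lies where complex I meets complex III in supercomplexes, had 7.55, 8.90 and 6.93 CPM in controls, 10.8, 15.3 and 16.2 CPM at 2.5 µM and 15.5, 19.4 and 27.9 CPM at 125 µM. All 6 exposed libraries lay above the controls. Its log2 fold change was the largest of the 36 in both comparisons with control, 1.35 ± 0.22 at 125 µM (edgeR adjusted p = 0.000284) and 0.81 ± 0.23 at 2.5 µM (adjusted p = 0.0353). The call at 2.5 µM was lost without any 1 of control libraries 1 and 3 and 2.5 µM libraries 2 and 3 (edgeR adjusted p from 0.089 to 0.156).

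NDUFA1 (chrX:119005450-119010625), a small single-pass membrane subunit encoded on the X chromosome, had 41.4, 41.9 and 36.7 CPM in controls, 46.3, 89.4 and 72.3 CPM at 2.5 µM and 79.7, 83.2 and 72.7 CPM at 125 µM. The first 2.5 µM library lay just above the controls, the second above the 125 µM range and the third just below it. The rise was 0.98 ± 0.18 on the log2 scale at 125 µM (edgeR adjusted p = 0.00066) and 0.78 ± 0.18 at 2.5 µM (adjusted p = 0.0164). The call at 2.5 µM was lost without control library 1, control library 3 or the second 2.5 µM library (edgeR adjusted p from 0.0568 to 0.0629). NDUFS5 (chr1:39491990-39500308), on the intermembrane side, had 46.4, 69.1 and 54.9 CPM in controls, 75.8, 89.4 and 89.3 CPM at 2.5 µM and 86.4, 80.1 and 74.9 CPM at 125 µM. Controls lay below all exposed libraries but were spread widely. It rose by 0.58 ± 0.13 at 2.5 µM (edgeR adjusted p = 0.0129) and by 0.52 ± 0.13 at 125 µM (adjusted p = 0.00463), and the call at 2.5 µM was lost without control library 1 (adjusted p = 0.0756).

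In the distal membrane arm, 8 of 10 members rose at 125 µM (median 0.61) and 5 of 10 at 2.5 µM (median 0.42), and every estimate at 125 µM was above 0 (0.16 to 1.03). NDUFB6 (chr9:32552997-32573160), a single-pass membrane subunit, had 10.1, 8.71 and 8.72 CPM in controls, 14.7, 17.3 and 12.5 CPM at 2.5 µM, and 16.6, 18.9 and 23.1 CPM at 125 µM. All exposed libraries exceeded the controls. Its log2 fold change was 1.03 ± 0.17 at 125 µM (edgeR adjusted p = 0.000255) and 0.72 ± 0.17 at 2.5 µM (adjusted p = 0.017), the latter lost without control library 1, control library 3 or the second 2.5 µM library (adjusted p from 0.051 to 0.0624).

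NDUFB5 (chr3:179322478-179345435), another membrane subunit, had 35.0, 36.2 and 30.01 CPM in controls, 44.2, 56.2 and 58.2 CPM at 2.5 µM and 56.8, 68.4 and 65.0 CPM at 125 µM. Exposed libraries again lay above the controls, with rises of 0.90 ± 0.12 at 125 µM (edgeR adjusted p = 7.39e-05, the smallest of the 36) and 0.62 ± 0.12 at 2.5 µM (adjusted p = 0.00977). NDUFB7 (chr19:14676890-14682874), which faces the intermembrane space, had 18.0, 18.2 and 14.6 CPM in controls, 23.0, 28.8 and 35.5 CPM at 2.5 µM and 32.6, 31.9 and 30.8 CPM at 125 µM. The 2.5 µM libraries were spread on both sides of the 125 µM ones. It rose by 0.89 ± 0.15 at 125 µM (edgeR adjusted p = 0.000303) and by 0.70 ± 0.15 at 2.5 µM (adjusted p = 0.0115).

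NDUFAB1 (chr16:23592323-23607677) is the mitochondrial acyl carrier protein, which serves fatty acid synthesis as well as the complex. It had 72.8, 75.6 and 73.9 CPM in controls, 85.9, 124 and 132 CPM at 2.5 µM, and 117, 123 and 124 CPM at 125 µM. Controls lay within a narrow band below all exposed libraries, and it rose by 0.71 ± 0.13 at 125 µM (edgeR adjusted p = 0.000552) and by 0.60 ± 0.13 at 2.5 µM (adjusted p = 0.0115, and 0.0535 without control library 1). NDUFA4 (chr7:10971578-10979883) carries a complex I name and meets the naming rule, but its protein is found in complex IV. It had 49.2, 49.1 and 50.8 CPM in controls, 62.4, 94.6 and 83.2 CPM at 2.5 µM, and 84.3, 93.9 and 98.7 CPM at 125 µM. It rose by 0.89 ± 0.13 at 125 µM (edgeR adjusted p = 0.000124) and by 0.68 ± 0.13 at 2.5 µM (adjusted p = 0.00885). Without it, 24 of 35 members rose at 125 µM and 14 of 35 at 2.5 µM.

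**Figure D3:**
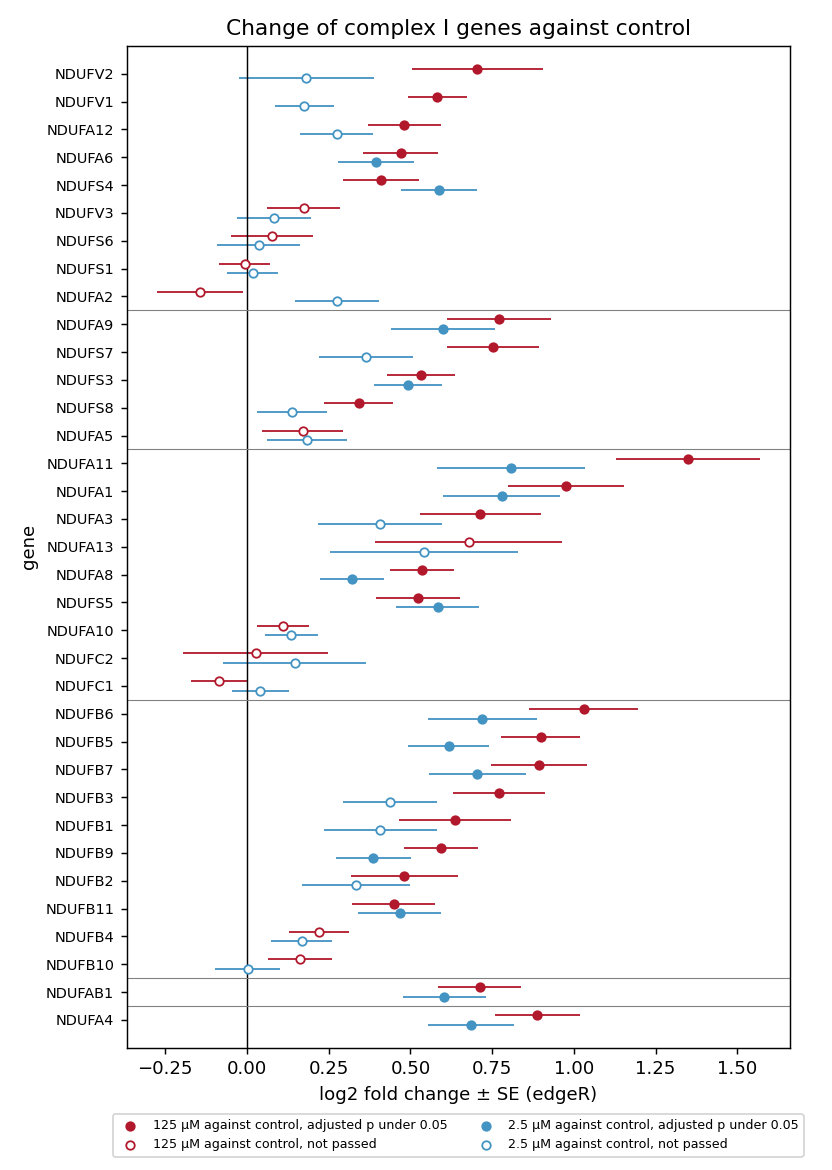
Log2 fold change ± SE of 35 of the 36 genes at 125 µM (red) and 2.5 µM (blue) against the same 3 controls, from the edgeR fit, grouped by place in the complex. Filled points passed the adjusted threshold of 0.05 and open points did not. All filled points lie above 0, and more are filled at 125 µM than at 2.5 µM.

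The 7 nuclear subunits of the catalytic core, those with counterparts in bacterial complex I, included 6 that rose at 125 µM (median 0.53) and 1, NDUFS3, that rose at 2.5 µM (median 0.18). Of the 28 accessory subunits, 18 rose at 125 µM (median 0.50) and 13 at 2.5 µM (median 0.40). The difference between core and accessory subunits was not tested. The NADH arm made up 31.0 to 32.2% of member reads in controls, 27.4 to 29.96% at 2.5 µM and 27.1 to 28.1% at 125 µM, with controls above all exposed libraries.

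Directly between the doses, the members differed little by the test: 1 of 36 was higher at 125 µM (NDUFV1), 1 was lower (NDUFA2) and 34 did not pass, where 14.9% of all genes tested passed, 7.48% as higher and 7.44% as lower (edgeR, adjusted p under 0.05). These shares over all genes rested on 965 and 960 genes, which became 445 and 354 without the second 125 µM library. The median log2 fold change was 0.17 beside 0.00 for all genes tested, and 27 of 36 estimates were above 0. Without the first 2.5 µM library the median was 0.05, and 2 members were higher without control library 2 or the first 125 µM library. The 125 µM libraries lay wholly above those at 2.5 µM in 7 members and wholly below in 2, against 16.9% and 15.9% of all genes tested. Group means were in the order control, 2.5 µM, 125 µM in 28 members and highest at 2.5 µM in 8; the same orders held in 26.9% and 22.3% of all genes tested.

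Levels per exon length (RPKM) spanned a wide range. In controls the highest were NDUFS5 with 99.1 ± 24.2 RPKM (SD, n = 3), NDUFA1 with 49.2 ± 4.19 RPKM, NDUFAB1 with 40.3 ± 3.17 RPKM and NDUFB10 with 36.5 ± 2.38 RPKM. NDUFAB1 and NDUFB10 did not differ beyond their spread. The lowest was NDUFA13 with 0.568 ± 0.115 RPKM, below NDUFA11 with 1.56 ± 0.262 and NDUFS7 with 1.78 ± 0.189 RPKM, and the last pair did not differ beyond their spread. The exon length in the files was more than 2 times the canonical transcript of GENCODE v44 for 20 of the 35 members that could be compared (up to 9.56 times, and 4839 against 575 bases for NDUFA11), which lowers RPKM for such genes.

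**Figure D4:**
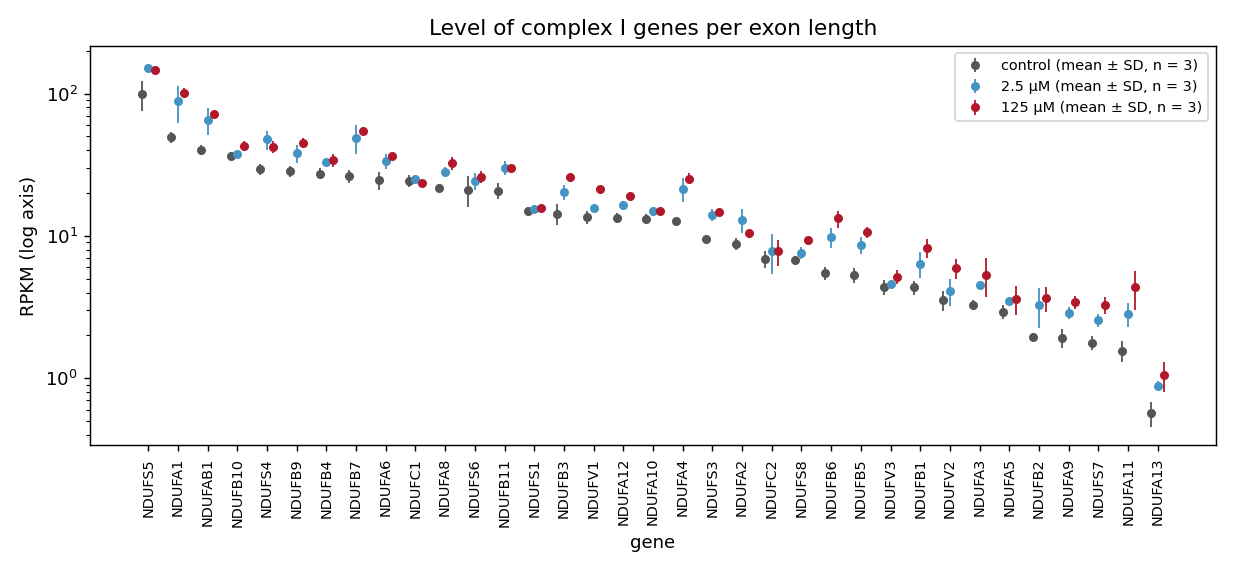
RPKM (log axis) of 35 of the 36 genes, ordered by the control mean, as mean ± SD of 3 libraries in controls (grey), at 2.5 µM (blue) and at 125 µM (red). NDUFS5 is the highest and NDUFA13 the lowest in controls, and for most genes both exposed means lie above the control mean.

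Several member values carry limits of counting. NDUFA13 had 181 reads over the 9 libraries, and its log2 fold change of 0.68 ± 0.29 at 125 µM did not pass (edgeR adjusted p = 0.0724). NDUFA7 and NDUFB8 were present only as paired features with a suffix, outside the rule, with 27 and 5 reads and with 22 and 14 reads in all. Beside NDUFA2, members overlapping another gene with reads include NDUFA1 (RNF113A), NDUFA3 (TFPT), NDUFA6 (NDUFA6-AS1), NDUFA9 (RP11-234B24.6), NDUFA11 (AC024592.12), NDUFA13 (TSSK6 and YJEFN3), NDUFB2 (BRAF and ADCK2), NDUFB3 (FAM126B), NDUFB6 (TOPORS-AS1), NDUFB9 (MTSS1 and TATDN1), NDUFB11 (RBM10), NDUFC1 (NAA15), NDUFC2 (NDUFC2-KCTD14), NDUFS1 (EEF1B2), NDUFS3 (CELF1 and PTPMT1) and NDUFS7 (AC005329.7), and are uncertain as far as they share its reads. NDUFV2 may share reads with the pseudogene NDUFV2P1, which had 135 reads, and the other 37 of 38 NDUF features named as pseudogenes had 0.

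Members are short transcripts, with a median canonical length of 696 bases beside 3293 for all genes tested; a length was found for 35 members and 85.9% of genes tested. Of members under 1000 bases, 18 of 24 rose at 125 µM and 10 of 24 at 2.5 µM, beside 45.2% and 24.5% of all tested genes under 1000 bases. Of members of 1000 bases or more, 6 of 11 rose at 125 µM and 4 of 11 at 2.5 µM, beside 19.7% and 5.23% of tested genes of that length. The part of transcript length in the members' change was not tested further.

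The 7 ND subunits encoded in mitochondrial DNA followed another order. They held 2.28, 2.28 and 2.53% of gene reads in controls, 2.09, 1.97 and 1.91% at 2.5 µM, and 2.95, 2.85 and 2.63% at 125 µM, so that the lowest group was 2.5 µM and the groups did not overlap. This order was not particular to the ND genes. All genes of the mitochondrial genome, the ND genes among them, held 7.58 to 8.64% in controls, 6.82 to 7.19% at 2.5 µM and 8.85 to 9.69% at 125 µM. At 125 µM against control 3 of the 7 ND genes rose (MT-ND2, MT-ND3 and MT-ND4), and at 2.5 µM 2 fell (MT-ND5 and MT-ND6). At 125 µM against 2.5 µM 6 of the 7 were higher (edgeR, adjusted p under 0.05 in each comparison). Of all genes tested, 20.3% rose in the first comparison, 5.03% fell in the second and 7.48% were higher in the third. MT-ND6 had 1328, 1168 and 1333 CPM in controls, 985, 928 and 929 CPM at 2.5 µM and 1186, 1219 and 1217 CPM at 125 µM. The 2.5 µM libraries were the lowest, and it fell by 0.43 ± 0.08 on the log2 scale at 2.5 µM (edgeR adjusted p = 0.00907). Of the MT-ND6 reads, 23.1% were counted as intron reads. Whether counting used strand is not given, so reads from the other strand may be among them. The count of 3 became 1 without control library 1 and in limma on RPKM or quantile-normalised values, and 5 without control library 3 or with upper-quartile scaling. The MT-ND3 call was also lost without control library 2 or 125 µM libraries 2 or 3, and the MT-ND4 call without the first 125 µM library. The count of 2 became 1 without control library 1, control library 3 or 2.5 µM libraries 2 or 3, each time by the loss of MT-ND5, and the count of 6 became 3 and 1 in limma on log2(RPKM + 0.5) and log2(RPKM + 0.1). Nuclear member reads per ND read were 0.0595, 0.0677 and 0.0557 in controls, 0.0810, 0.0940 and 0.0996 at 2.5 µM and 0.0677, 0.0694 and 0.0749 at 125 µM. Libraries at 2.5 µM were the highest, and the second control and the first 125 µM library had the same rounded value. The difference between nuclear and ND genes was not tested.

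Among 18 complex I assembly factors, 7 rose at 125 µM (median 0.25; 4 without the second 125 µM library) and 3 rose at 2.5 µM (median 0.19; 0 without control library 1, 1 without the third 2.5 µM library). The 3 were NDUFAF3 (log2 fold change 0.74 ± 0.18 at 2.5 µM, edgeR adjusted p = 0.0201), TMEM261 (0.96 ± 0.18, adjusted p = 0.0083) and COA1 (0.42 ± 0.11, adjusted p = 0.028). At 125 µM their values were 1.23 ± 0.18 (edgeR adjusted p = 0.000104), 1.21 ± 0.17 (adjusted p = 0.000111) and 0.55 ± 0.11 (adjusted p = 0.00136). NDUFAF3 had 6.19, 6.13 and 8.72 CPM in controls, 11.9, 9.95 and 13.7 CPM at 2.5 µM and 15.5, 16.4 and 15.8 CPM at 125 µM. The 125 µM libraries all lay above the controls for NDUFAF3. Of 13 tested iron-sulphur cluster assembly genes, 6 rose at 125 µM and 2 at 2.5 µM, led by BOLA3 (1.03 ± 0.12 at 125 µM, edgeR adjusted p = 3.28e-05). Over all genes tested, 20.3% rose at 125 µM and 6.02% at 2.5 µM.

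The other respiratory complexes moved in the same direction. Of 38 genes of complexes II to V encoded in the nucleus, 30 rose and 1 (UQCRC2) fell at 125 µM (median 0.57; the UQCRC2 call was lost without control libraries 1 or 3 or 125 µM libraries 1 or 3), and 23 rose at 2.5 µM (median 0.52). At 125 µM this was 2 of 3 for complex II, 4 of 8 for complex III, 10 of 10 for complex IV and 14 of 17 for ATP synthase. At 2.5 µM it was 0 of 3 (1 at an unadjusted p under 0.05), 4 of 8, 7 of 10 (4 without control library 1) and 12 of 17. Of 14 other mitochondrial genes, 9 rose at 125 µM and 7 at 2.5 µM, and none passed as lower. The estimates at 125 µM were below 0 for CS (-0.10), VDAC1 (-0.17) and VDAC3 (-0.23) and above 0 for the other 11. Over all genes tested, 20.3% rose at 125 µM and 6.02% at 2.5 µM. Mitochondrial content was not measured. No test set the complex I genes apart from these.

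Of 12 regulators of mitochondrial gene expression, 3 rose (25%) and 1 fell at 125 µM, near the 20.3% and below the 19.9% of all genes tested. Their median log2 fold change there was -0.10. At 2.5 µM 0 passed in edgeR, where 4 had an unadjusted p under 0.05 (2 in each direction). PPARGC1A, the coactivator PGC-1alpha, had 50.5, 49.9 and 53.1 CPM in controls, 60.3, 56.0 and 64.2 CPM at 2.5 µM and 84.9, 83.7 and 83.7 CPM at 125 µM, with no overlap between groups (0.72 ± 0.08 at 125 µM, edgeR adjusted p = 2.58e-05). Its relative PPARGC1B rose by 1.41 ± 0.24 (adjusted p = 0.000421) and the nuclear receptor gene ESRRA by 0.34 ± 0.10 (adjusted p = 0.0149, and 0.0507 without control library 2). YY1, whose letters were searched above, fell by 0.45 ± 0.09 at 125 µM (edgeR adjusted p = 0.00152). NRF1 had an estimate of -0.16 ± 0.12 (adjusted p = 0.297) and GABPA one of -0.26 ± 0.12 (adjusted p = 0.103), neither past the threshold.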

How the data were processed

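RNA of 9 HepG2 cultures was sequenced as stranded, polyadenylated libraries with paired reads, aligned to hg19 and counted with CLC Genomics Workbench, per the labels' protocols and the series' design text. The version used, and whether counting used strand, is not given in the sources used here. Per the file headers, the deposited counts are raw whole-number reads per gene, given as total, unique, exon and intron reads. The authors also deposited RPKM, which per the file headers relate exon reads to exon length and depth. A normalised signal was made by the authors with quantile normalisation, per the design text. Starts in the files were raised by 1 base, after which 68.8% of 33599 features matched by name had the start of GENCODE v44 on GRCh37 (1.15% without).

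Total gene reads were filtered with filterByExpr (12901 genes), scaled by TMM and fitted in edgeR 4.0.16 (R 4.3.3) with its quasi-likelihood test, all 9 libraries in 3 groups with no covariate. Contrasts were two-sided, and p-values were adjusted over the 12901 genes by Benjamini-Hochberg, with a threshold of 0.05. CPM of single genes are TMM-scaled. The summed marker levels, the members' exon and intron CPM and the 3-read floor are instead per total gene reads, without TMM. SE were derived from the edgeR test, as the absolute log2 fold change divided by the square root of its F statistic. The common biological coefficient of variation was 10.0%. On simulated counts this fit recovered 42 of 67 genes changed 1.5-fold (62.7%) at 125 µM against control. At 2.5 µM against control it recovered 30 of 67 (44.8%), from another random draw of genes. The simulation changed far fewer genes than passed in the data and took its spread from the fitted trend. These rates are thus not the power in these data, and the difference between them was not tested. Alternatives were other scalings, filters and read kinds, DESeq2 1.42.0, limma 3.58.1 on RPKM and quantile-normalised values, the replicate number as a block, and leaving out each library.

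The members, arms and gene lists were chosen with earlier results of these data known. Named were the 4 largest changes past the threshold in each comparison, any member past it against the main direction, and in each arm the member of highest mean RPKM and that of smallest adjusted p at 125 µM, members overlapping another gene, and up to 3 genes of each other list. NDUFB10, ESRRA, UQCRC2, NRF1, GABPA and the cell type markers given with values were named after their values were seen. The values of 1 member are not reported here, and the figures leave it out; it is in the counts and medians. Counting intervals and limits cover counting error only.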

Additional observations from a re-analysis of the deposited data

How the results depend on the processing

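At 125 µM against control the number of members higher ranged from 22 to 27 over all 21 alternatives, none was lower in any, and 20 of the 25 calls held in every one; NDUFA3, NDUFB2, NDUFS4, NDUFS8 and NDUFV2 were lost in at least 1. The NDUFA2 estimate there turned from -0.14 to 0.10 on exon reads, 0.25 and 0.26 in limma on log2(RPKM + 0.5) and log2(RPKM + 0.1), and 0.062 on quantile-normalised values. At 2.5 µM against control the 15 members higher became 3, 0 and 2 in those 3 limma fits, and 6 to 16 with 1 library left out; log2(RPKM + 0.1) called no gene at all by limma, where 25 members had an unadjusted p under 0.05. Genes of the other lists called at 2.5 µM, 37 in all, became 22 with only the groups compared, 8, 0 and 11 in the limma fits, and 14 to 40 with 1 library left out. At 125 µM against 2.5 µM the 1 member higher became 3 with no filter, 2 with the replicate block and 1 to 2 with 1 library left out. The 1 member lower, NDUFA2, became 0 in DESeq2, with no filter, on exon reads, with the replicate block and in the 3 limma fits, and 0 to 1 with 1 library left out. The 11 genes of other lists called became 7, 5 and 6 in the limma fits, and 5 to 15 with 1 library left out. Without the first 2.5 µM library the difference between the doses turned to -0.057 for NDUFA1 and to -0.073 for NDUFAB1 (ranges with 1 library left out -0.057 to 0.49 and -0.073 to 0.20). The causes were not tested.

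Over all genes, 2618 rose and 2562 fell at 125 µM against control (50.5% of calls higher), and 2811 and 1413 on log2(RPKM + 0.5) (66.5%) or 2768 and 1393 on log2(RPKM + 0.1), with a median of all genes of 0.11 in place of 0.00. At 2.5 µM 776 rose and 649 fell. These became 171 and 45, 0 and 0, and 153 and 55 in the limma fits, 462 and 269 with only the groups compared, 174 and 39 without control library 1, 1005 and 1045 without control library 2, 411 and 296 without control library 3, and 323 and 145 without the third 2.5 µM library. With no filter 1068 rose and 1024 fell. Between the doses 965 and 960 became 666 and 302, 577 and 287, and 465 and 438 in the limma fits, 634 and 739 in DESeq2, 525 and 490 without the second 2.5 µM library, and 557 and 486, 445 and 354, and 662 and 590 without 125 µM libraries 1, 2 and 3. Correlations of deviations showed no steady pairing by replicate number over the 3 pairs of groups: 4 of 9 same-number pairs were over 0.1 (-0.26 to 0.20, beside -0.28 to 0.28 for different numbers). Between control and 125 µM the same-number values were all above 0 (0.10, 0.20 and 0.055, beside -0.18 to 0.059 for different numbers). They were 0.087, -0.26 and 0.10 between control and 2.5 µM, and 0.16, -0.21 and 0.0084 between the doses. Nuclear intron share did fall from the first to the third library in each group, and the third library was the shallowest of each. A shared effect of replicate number on these measures was not tested. With the replicate block 25 members were higher at 125 µM and 13 at 2.5 µM. Depth limits members with few reads, such as NDUFA13.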
